A study of Mus musculus with 9 samples.

Results

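The genes described here build exosomes. They are 42 mouse genes of multivesicular body and exosome formation: the ESCRT complexes with the VPS4 ATPase, the Alix and syntenin adaptors, a neutral sphingomyelinase with the flotillins, and 11 tetraspanins. The list goes by gene name and function and uses no measured value in its rule, though earlier results of these data were known when it was drawn up. The genes were found among the 55536 gene IDs of the count table through GENCODE M21. Of the 42 genes, 41 had enough counts to be tested, and Hgs did not. The question was how the RNA of the exosome-making genes stands in macrophages that have themselves been given exosomes.

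RNA was sequenced from wild-type bone marrow-derived macrophages (BMDM), which are primary macrophages grown from mouse marrow with the growth factor M-CSF. The marrow came from male mice aged 6 to 12 weeks, and every culture, controls included, had serum in the medium and M-CSF at 25 ng/mL over 6 days. There were 3 groups of 3 libraries, each exposed for 18 hours: cells given exosomes of ApoE-deficient (EKO) BMDM, cells given exosomes of wild-type BMDM, both at 2e+09 particles/mL, and cells given PBS. The recipient cells of every group were wild type, so ApoE deficiency applies to the donors of the exosomes only. The study calls the replicates biological, but no source used here says that they came from separate mice or separate exosome preparations, so a p-value here speaks only of spread among the libraries at hand. Exosomes carry RNA, and counts from added vesicles and from the recipient cells cannot be told apart in these libraries. In bulk RNA, a change in the number of cells of a type and a change in RNA per cell cannot be told apart either.

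As background, exosomes start as buds that form inward from the limiting membrane of a late endosome, which is then called a multivesicular body. ESCRT-0 gathers ubiquitinated cargo, ESCRT-I and ESCRT-II shape the bud, ESCRT-III filaments cut its neck, and the VPS4 ATPase takes the filaments apart for reuse. Syntenin and Alix link syndecan cargo to ESCRT-III, ceramide made by neutral sphingomyelinase bends the membrane by a separate route, and tetraspanins form membrane platforms that end up enriched on the released vesicles. When the multivesicular body fuses with the cell surface its vesicles are released, and when it fuses with a lysosome they are degraded.

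The tetraspanins are the largest role group among the 42 genes, and their coding sequences show what makes them a family. Tetraspanins carry a Cys-Cys-Gly motif in the large extracellular loop. Codons for that motif were found from codon 100 on in 11 of 11 reference coding sequences of 210 to 303 codons. The loop itself was not mapped, and codon 100 stood in for its start. Cd81 had 2 matches from there on, and Cd9 and Cd63 each had an earlier match as well, at codons 76 and 72. The stretch of 45 bases around the first match from codon 100 on is shown for 3 genes, with the codons of the motif in capitals. They are Cd9 and Cd63, whose RNA levels passed a test, and Cd81, whose level did not. The letters are the GRCm38 reference with GENCODE M21 coding exons, on the coding strand, with the motif at codon 150 of Cd9, 145 of Cd63 and 156 of Cd81.
Cd9: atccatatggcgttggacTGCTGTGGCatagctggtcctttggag
Cd63: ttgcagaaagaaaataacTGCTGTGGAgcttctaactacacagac
Cd81: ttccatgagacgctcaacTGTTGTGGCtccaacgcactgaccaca

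The 9 libraries held 28581306 to 35929596 counts. In a principal component analysis, wild-type exosome replicate 3 stood apart on the first component, which held 15.2% of the variance (57.5 against -16.8 to 3.43 for the other libraries). Results that rest on that library are given with and without it. The second component held 15.1%. On it, wild-type exosome replicate 2 was at -45.4 and EKO exosome replicate 2 at 38.0, with the other libraries at -7.07 to 17.8. Of the 7 macrophage markers, all were tested, and their summed level was 22062 to 23291 CPM (counts scaled to library size) in PBS, 20285 to 21233 with EKO exosomes and 20481 to 21130 with wild-type exosomes. Csf1r, Adgre1, Itgam, Fcgr1 and Lyz2 were lower than in PBS with both kinds of exosome at an edgeR adjusted p under 0.05, Cd68 was higher with wild-type exosomes, and Mertk did not pass. Fcgr1 was also lower with EKO than with wild-type exosomes (log2 difference -0.39 ± 0.05, adjusted p = 9.58e-06). Neutrophil markers were low, with summed levels of 17.3 to 21.9, 2.88 to 12.6 and 8.23 to 24.8 CPM in the same order. Ly6g was at 0 in 8 of 9 libraries, while Ngp (1.34 to 12.0 CPM), S100a9 (0.923 to 8.74 CPM) and S100a8 (0.392 to 3.75 CPM) were counted in every library. Fibroblast markers summed to 8.61 to 62.2, 5.51 to 24.3 and 16.6 to 29.9 CPM. The part of these marker levels in the results below was not tested.

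The level of each gene was compared per exon length, as TPM (transcript abundance scaled to library total) computed from the counts, because only that scale allows genes to be set beside each other. Cd9 was the most abundant in PBS at 916 ± 31.4 TPM (SD, n = 3), followed by Cd53 at 701 ± 17.2 TPM, and each stood above the next gene by more than their summed SD. Cd81 (387 ± 8.50 TPM), the ESCRT-III filament gene Chmp4b (380 ± 29.7 TPM) and the syntenin gene Sdcbp (360 ± 5.44 TPM) followed, and Cd81 and Chmp4b, and Chmp4b and Sdcbp, did not differ beyond their spread. Cd63 (270 ± 11.2 TPM), Cd37 (267 ± 5.52 TPM) and Chmp2a (253 ± 18.7 TPM) came next, and Cd63 and Cd37, and Cd37 and Chmp2a, again did not differ beyond their spread. At the low end stood the ESCRT-0 gene Stam at 15.04 ± 1.45 TPM and the neutral sphingomyelinase gene Smpd2 at 10.7 ± 0.562 TPM, while Vps25 (1.84 ± 1.37 TPM) and Hgs (listed at 0 TPM) have counts that are hard to read, as given further on.

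By role, the tetraspanins had a median over genes of 175 TPM over all 9 libraries and a range of 31.7 to 959 TPM. The 3 adaptor genes Pdcd6ip, Pdcd6 and Sdcbp ranged from 76.6 to 384 TPM. ESCRT-III, the complex that forms the filaments, had a median of 125 TPM, above that of ESCRT-I at 59.6 TPM, the VPS4 group at 58.7 TPM and ESCRT-II at 41.4 TPM. Both readable ESCRT-0 genes, Stam and Stam2, were at 15.997 and 35.9 TPM. These are descriptions of level, and ranges of different roles overlap.

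**Figure D1:**
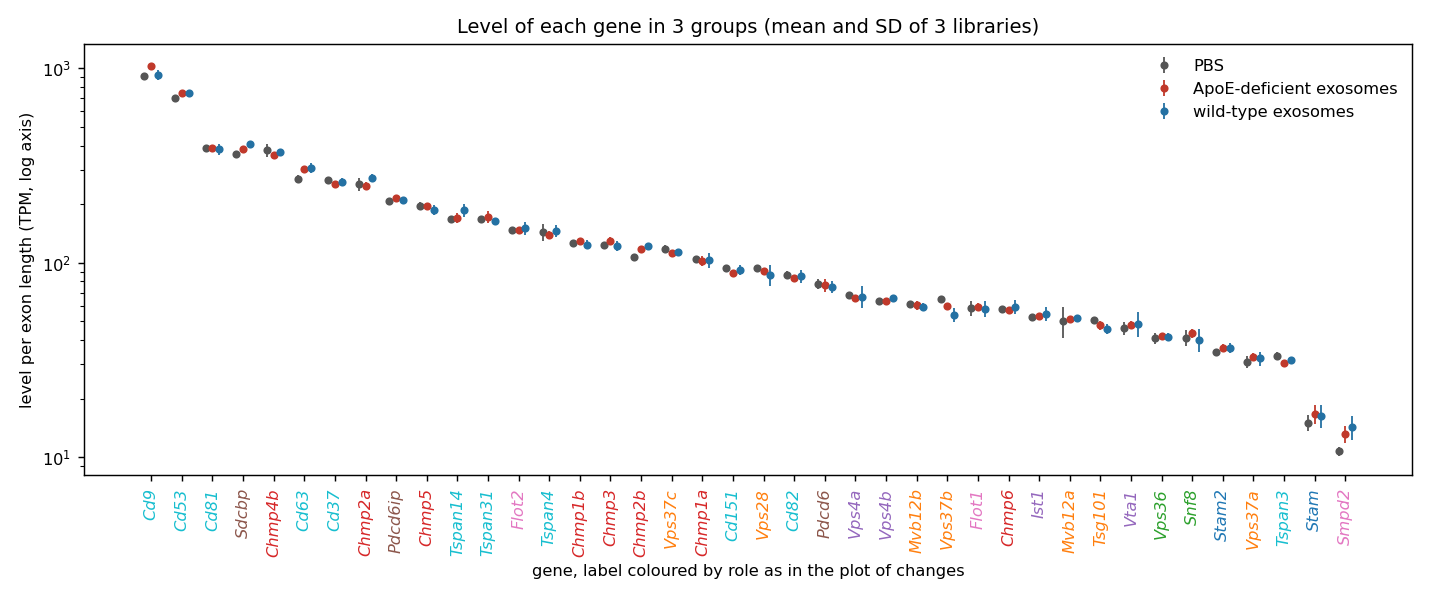
The level of each of 40 genes in TPM on a log axis, as the mean of 3 libraries with SD bars, in PBS (grey), EKO exosome (red) and wild-type exosome (blue) cultures, ordered by level. Levels run from Cd9 at 916 TPM down to Smpd2 at 10.7 TPM in PBS, and for most genes the 3 groups lie on top of each other.

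Few of the exosome-making genes differed between the groups. With EKO exosomes, 2 of the 41 tested genes rose (Cd9 and Cd63) and 0 fell at an edgeR adjusted p under 0.05, which is 4.88% beside 4.23% of all 13815 genes tested (1.82% higher, 2.41% lower). With wild-type exosomes, 2 rose (Sdcbp and Cd63) and 0 fell, again 4.88%, beside 4.11% of all genes (1.93% higher, 2.18% lower). Between both exosome groups, Cd9 was higher with EKO exosomes and no other gene passed, 2.44% beside 0.695% of all genes (0.282% higher, 0.413% lower). For the mean of both exosome groups against PBS, Sdcbp and Cd63 rose, 4.88% beside 5.31% of all genes (2.52% higher, 2.79% lower). The shares against PBS are near those of all genes, and the share between the exosome groups is that of 1 gene.

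These genes are well expressed, which matters for that reading. Of the 41 tested genes, 39 had a mean of 25 CPM or more, a level chosen after the data were seen. Among them 3 (7.69%) passed in at least 1 of the 3 pairwise comparisons, against 12.2% of the 5985 genes at such levels. The median log2 fold change over the 41 genes was 0.01 with EKO exosomes and -0.01 with wild-type exosomes, beside 0.00 for all genes in both. The libraries of the groups did not overlap for 10 of 41 genes with EKO exosomes and 8 of 41 with wild-type exosomes, where 18.3% and 17.5% of all genes did not overlap. Among the 5985 genes at 25 CPM or more, which had higher shares, 1513 and 1486 did not overlap.

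The precision sets a bound on what could have been missed. The median SE of a log2 fold change over the 41 genes was 0.06, and the 95% interval lay within ±0.5 for 39 of 41 genes in each comparison with PBS and for 40 of 41 between the exosome groups. The genes outside that bound were Vps25 and Smpd2 against PBS, and Vps25 between the exosome groups. Within the narrower bound of ±0.25 lay 32 genes with EKO exosomes, 31 with wild-type exosomes and 36 between them.

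**Figure D2:**
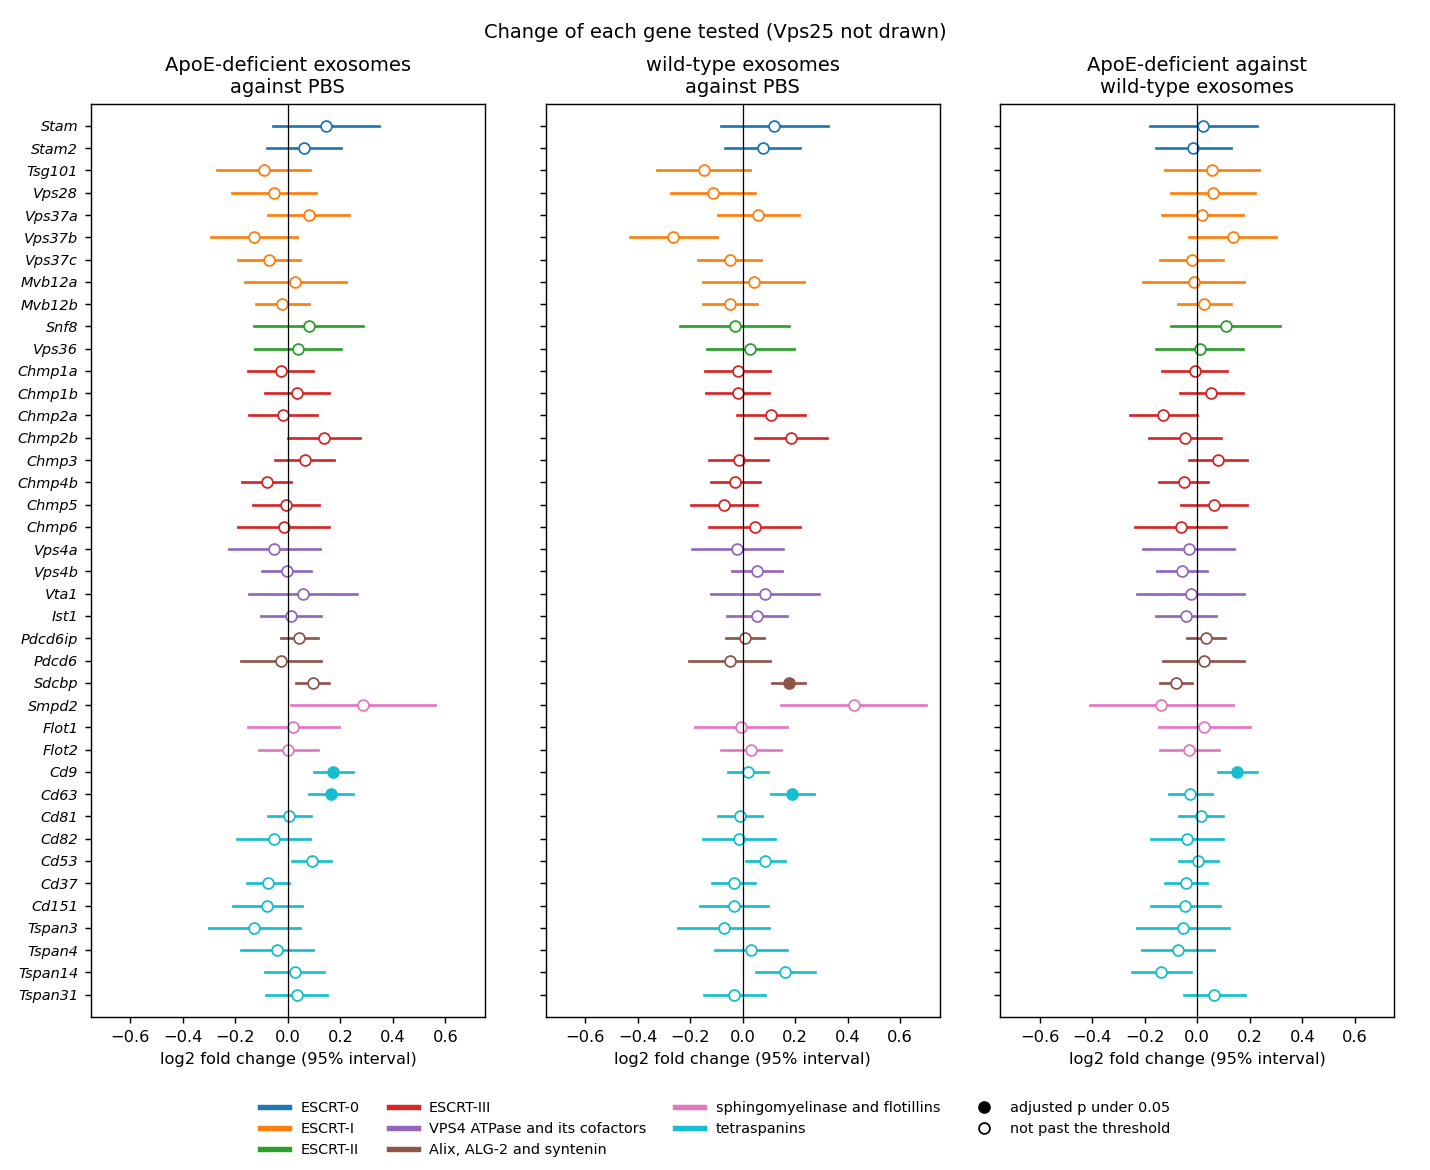
The log2 fold change of each of 40 tested genes (points) with its 95% interval (lines), coloured by role, in the 3 pairwise comparisons. Filled points passed an edgeR adjusted p of 0.05: Cd9 and Cd63 with EKO exosomes, Sdcbp and Cd63 with wild-type exosomes, and Cd9 between both exosome groups. Vps25 is left out because its intervals reach past the axis.

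Among the tetraspanins, Cd9 rose with EKO exosomes and was not seen to move with wild-type exosomes. CD9 is a tetraspanin of the cell surface and of small vesicles, known for its part in membrane fusion. The gene lies at chr6:125460266-125494791 on the minus strand (GRCm38). Its level was 514, 497 and 486 CPM in the 3 PBS libraries, 552, 559 and 576 CPM with EKO exosomes, and 542, 478 and 498 CPM with wild-type exosomes. The 3 EKO exosome libraries were above all 6 others, while wild-type exosome libraries lay on both sides of the PBS range. With its SE, the log2 fold change was 0.17 ± 0.04 with EKO exosomes, a rise of 12.7% with an edgeR adjusted p of 0.00219, and 0.02 ± 0.04 with wild-type exosomes (adjusted p = 0.897, 95% interval -0.05 to 0.09). The rise with EKO exosomes passed the threshold in each of 17 alternative analyses.

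The difference between both exosome groups was tested directly for Cd9. It was 0.15 ± 0.04 on the log2 scale, 11.1% higher with EKO exosomes, with an edgeR adjusted p of 0.0345. That call rests on every library but 1 of those compared. The adjusted p was 0.0925, 0.145 and 0.219 without EKO exosome replicates 1, 2 and 3, and 0.347 and 0.212 without wild-type exosome replicates 2 and 3. The last is the library that stood apart on the first principal component. The log2 difference stayed between 0.11 and 0.20 when single libraries were left out.

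Cd63 rose with both kinds of exosome. CD63 is the tetraspanin of late endosomes and lysosomes and the most used marker of exosomes, and its gene lies at chr10:128900989-128912822 on the plus strand. It stood at 258, 256 and 281 CPM in PBS, 304, 297 and 289.9 CPM with EKO exosomes and 307, 314 and 286 CPM with wild-type exosomes. All 6 exosome libraries were above all 3 PBS libraries, although PBS replicate 3 came within a few CPM of the lowest of them. Its log2 fold change was 0.16 ± 0.04 (SE here and below) with EKO exosomes (edgeR adjusted p = 0.0112) and 0.19 ± 0.04 with wild-type exosomes (adjusted p = 0.00274), and both comparisons use the same PBS libraries. Between the exosome groups it was -0.03 ± 0.04 (adjusted p = 0.946, 95% interval -0.11 to 0.06). The call with EKO exosomes was lost without EKO exosome replicate 1 (adjusted p = 0.0982), PBS replicate 1 (0.0701) or PBS replicate 2 (0.0908), while the call with wild-type exosomes held in each of 17 alternatives and was 0.23 (adjusted p = 0.000851) without wild-type exosome replicate 3.

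Cd81, which codes for the other tetraspanin widely used as an exosome marker, did not pass in any comparison. Its values were 289.7, 294 and 307 CPM in PBS, 306, 282 and 306 CPM with EKO exosomes and 280.1, 311 and 293 CPM with wild-type exosomes, so all groups overlapped. The log2 fold change was 0.01 ± 0.04 with EKO exosomes (edgeR adjusted p = 0.980, 95% interval -0.08 to 0.09) and -0.01 ± 0.04 with wild-type exosomes (adjusted p = 0.963, 95% interval -0.09 to 0.07). The gene lies at chr7:143052739-143067934 on the plus strand.

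The other tetraspanins did not pass. Cd53, a leukocyte tetraspanin, stood at 333, 314 and 329.5 CPM in PBS, 335, 359 and 346 CPM with EKO exosomes and 349.99, 341 and 346 CPM with wild-type exosomes. Every exosome library was above every PBS library, and the log2 fold changes were 0.09 ± 0.04 and 0.09 ± 0.04, with edgeR adjusted p of 0.217 and 0.235. Tspan14, one of the tetraspanins that escort the sheddase ADAM10, had a log2 fold change of 0.16 ± 0.06 with wild-type exosomes (adjusted p = 0.0975) and 0.03 ± 0.06 with EKO exosomes (adjusted p = 0.934). Cd37, a tetraspanin of immune cells, had -0.08 ± 0.04 and -0.03 ± 0.04 (adjusted p = 0.417 and 0.806). The remaining Cd82, Cd151, Tspan3, Tspan4 and Tspan31 had log2 fold changes from -0.13 to 0.03 with EKO exosomes and -0.07 to 0.03 with wild-type exosomes.

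**Figure D3:**
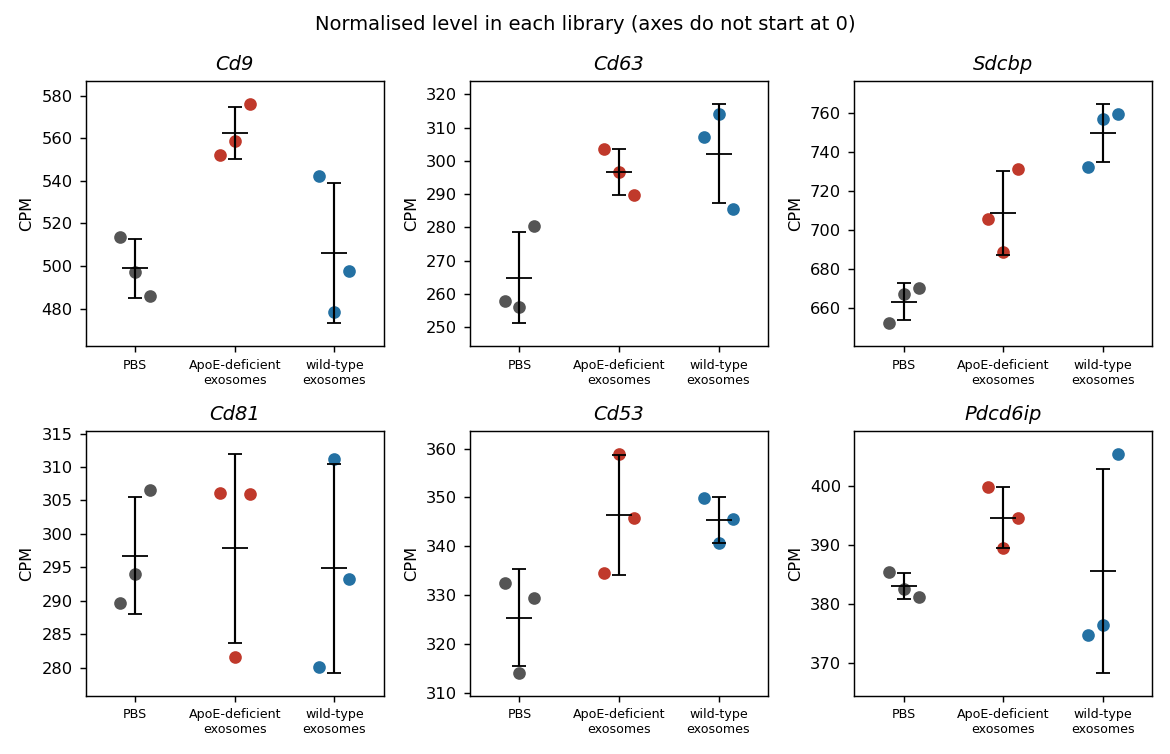
Normalised level in CPM (axes do not start at 0) of 6 genes in each library, with the group mean and SD as black bars. EKO exosome libraries are above all others for Cd9, all exosome libraries are above PBS for Cd63, Sdcbp and Cd53, and the groups overlap for Cd81. For Pdcd6ip the EKO exosome libraries lie just above PBS and the wild-type exosome libraries on both sides.

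Among the adaptors, Sdcbp rose with wild-type exosomes. It codes for syntenin, the PDZ protein that binds the tails of syndecans and of CD63 and recruits Alix, and lies at chr4:6365650-6408423 on the plus strand. Its level was 652, 667 and 670.2 CPM in PBS, 706, 689 and 731 CPM with EKO exosomes and 732, 757 and 759 CPM with wild-type exosomes. The groups did not overlap in any pair, with PBS lowest and wild-type exosomes highest. Its log2 fold change was 0.18 ± 0.03 with wild-type exosomes (edgeR adjusted p = 0.000208) and 0.10 ± 0.03 with EKO exosomes (adjusted p = 0.0798). Without wild-type exosome replicate 3 the first was 0.17 (adjusted p = 0.00261). The second passed with DESeq2 (adjusted p = 0.0288), with limma-voom (0.0313) and with a replicate block (0.0367). The difference between the exosome groups was -0.08 ± 0.03, EKO minus wild type, and did not pass (adjusted p = 0.372).

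The partners of syntenin in the core pathway did not pass. Pdcd6ip, which codes for Alix, the bridge from syntenin to ESCRT-III, was at 385, 382 and 381 CPM in PBS, 399.7, 389 and 395 CPM with EKO exosomes and 375, 376 and 405 CPM with wild-type exosomes. The log2 fold changes were 0.04 ± 0.04 and 0.01 ± 0.04 (edgeR adjusted p = 0.717 and 0.955). Pdcd6 codes for ALG-2, the calcium-binding partner of Alix, and had -0.03 ± 0.08 and -0.05 ± 0.08 (adjusted p = 0.955 and 0.870).

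None of the 24 tested genes of the ESCRT complexes and the VPS4 group passed an edgeR adjusted p of 0.05 in any comparison. At an unadjusted p under 0.05 there was 1 with EKO exosomes, 2 with wild-type exosomes and 0 between them, beside 13.1%, 14% and 8.15% of all genes. The median log2 fold change over the 24 was -0.01 with EKO exosomes and -0.02 with wild-type exosomes. DESeq2, limma-voom and a minimum count of 30 each called 1 of them lower with wild-type exosomes, which was Vps37b in each case.

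For ESCRT-0, the cargo-gathering complex, Stam was at 37.1, 30.6 and 33.2 CPM in PBS, 40.1, 38.7 and 32.6 CPM with EKO exosomes and 39.1, 39.3 and 31.1 CPM with wild-type exosomes. All groups overlapped, with log2 fold changes of 0.14 ± 0.10 and 0.12 ± 0.10 (edgeR adjusted p = 0.625 and 0.687). Stam2, its paralog and the more abundant of the pair per exon length, was at 56.9, 54.6 and 55.5 CPM in PBS, 56.5, 61.1 and 56.7 CPM with EKO exosomes and 57.0, 56.2 and 63.0 CPM with wild-type exosomes. It had 0.06 ± 0.07 and 0.08 ± 0.07 (adjusted p = 0.834 and 0.731).

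For ESCRT-I, the complex that binds ESCRT-0 and the cargo, Vps37b came nearest to the threshold. VPS37B is 1 of the alternative VPS37 subunits of this complex. It stood at 48.3, 47.8 and 48.9 CPM in PBS, 44.2, 45.7 and 42.8 CPM with EKO exosomes and 42.3, 35.8 and 42.7 CPM with wild-type exosomes. The groups did not overlap, with PBS highest. The log2 fold change was -0.13 ± 0.08 with EKO exosomes (edgeR adjusted p = 0.557) and -0.26 ± 0.08 with wild-type exosomes (adjusted p = 0.0583). The second reached an adjusted p of 0.0351 with DESeq2, 0.0480 with limma-voom and 0.0458 with a minimum count of 30. Of its exon length, 42.5% lies antisense to Gm37939 and Hip1r, and the level of Hip1r was 0.0699 to 1.13 CPM.

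The other ESCRT-I genes did not pass. Vps37c, the most abundant ESCRT-I gene per exon length, was at 88.1, 84.9 and 81.5 CPM in PBS, 79.1, 78.6 and 84.5 CPM with EKO exosomes and 80.1, 83.8 and 81.9 CPM with wild-type exosomes. All groups overlapped. Tsg101, which codes for the ubiquitin-binding subunit that viruses also recruit, had log2 fold changes of -0.09 ± 0.09 and -0.15 ± 0.09 (edgeR adjusted p = 0.780 and 0.495). Over the 7 ESCRT-I genes the values ran from -0.13 to 0.08 with EKO exosomes and -0.26 to 0.06 with wild-type exosomes.

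For ESCRT-II, which links ESCRT-I to ESCRT-III, Snf8 was at 28.6, 31.9 and 27.1 CPM in PBS, 29.0, 32.0 and 31.6 CPM with EKO exosomes and 28.0, 24.9 and 32.9 CPM with wild-type exosomes. The groups overlapped, with log2 fold changes of 0.08 ± 0.10 and -0.03 ± 0.10 (edgeR adjusted p = 0.866 and 0.949). Vps36, the subunit that binds ubiquitin and phosphoinositide, had 0.04 ± 0.08 and 0.03 ± 0.08. The third subunit gene, Vps25, had 4 to 48 counts per library, and its log2 fold changes of -0.78 ± 0.87 and -0.64 ± 0.87 have intervals too wide to read.

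For ESCRT-III, Chmp4b codes for the main filament subunit and was the most abundant gene of the complex. It was at 187, 213 and 216 CPM in PBS, 194, 192 and 197 CPM with EKO exosomes and 205, 198 and 201 CPM with wild-type exosomes. PBS replicate 1 was the lowest and the other PBS libraries the highest of all, and the log2 fold changes were -0.08 ± 0.05 and -0.03 ± 0.05 (edgeR adjusted p = 0.492 and 0.878). Chmp2b, a subunit that helps to recruit VPS4, was at 53.9, 54.8 and 56.1 CPM in PBS, 61.1, 61.5 and 58.7 CPM with EKO exosomes and 64.6, 59.96 and 62.8 CPM with wild-type exosomes. Every exosome library was above every PBS library, but the log2 fold changes of 0.14 ± 0.07 and 0.18 ± 0.07 did not pass (adjusted p = 0.381 and 0.136). Its partner Chmp2a had -0.02 ± 0.06 and 0.11 ± 0.06 (adjusted p = 0.959 and 0.487). The remaining Chmp1a, Chmp1b, Chmp3, Chmp5 and Chmp6 had values from -0.03 to 0.06 with EKO exosomes and -0.07 to 0.05 with wild-type exosomes.

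For the VPS4 group, Vps4b, 1 of the paralogs of the disassembly ATPase, was at 153, 148 and 151 CPM in PBS, 145, 151 and 154 CPM with EKO exosomes and 163, 148 and 158 CPM with wild-type exosomes. The log2 fold changes were 0.00 ± 0.05 and 0.05 ± 0.05 (edgeR adjusted p = 0.985 and 0.699). Its paralog Vps4a, the most abundant of the group per exon length, was at 47.2, 45.8 and 44.2 CPM in PBS, 43.6, 46.0 and 42.7 CPM with EKO exosomes and 44.8, 39.2 and 51.3 CPM with wild-type exosomes. Per exon length, Vps4a did not differ from Vps4b beyond their spread with EKO exosomes (65.7 ± 2.78 against 63.3 ± 2.16 TPM, SD). The same held with wild-type exosomes (66.9 ± 8.53 against 65.7 ± 2.63 TPM). Both paralogs overlapped between all groups. The cofactor genes Vta1 and Ist1 had log2 fold changes of 0.06 ± 0.10 and 0.01 ± 0.06 with EKO exosomes and of 0.08 ± 0.10 and 0.05 ± 0.06 with wild-type exosomes.

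Of the membrane lipid and raft genes, Smpd2, which codes for a neutral sphingomyelinase, had the largest fitted log2 fold change against PBS among the tested members other than Vps25, though it did not pass. It stood at 12.1, 13.3 and 12.9 CPM in PBS, 13.9, 16.5 and 16.4 CPM with EKO exosomes and 19.6, 16.9 and 14.8 CPM with wild-type exosomes. Every exosome library was above every PBS library, and the log2 fold changes were 0.29 ± 0.14 with EKO exosomes (edgeR adjusted p = 0.352) and 0.42 ± 0.14 with wild-type exosomes (adjusted p = 0.0721). Without wild-type exosome replicate 3 the second was 0.52 with an adjusted p of 0.0389. Of its exon length, 20.3% overlaps a neighbour, Mical1, which is the more abundant at 103 to 119 CPM, so some of its counts are uncertain.

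The flotillin genes code for scaffold proteins of membrane rafts, and neither passed. Flot2 was at 112, 105 and 107 CPM in PBS, 110.2, 108 and 105 CPM with EKO exosomes and 105, 105 and 121 CPM with wild-type exosomes. Its log2 fold changes were 0.00 ± 0.06 and 0.03 ± 0.06, and those of Flot1 were 0.02 ± 0.09 and -0.01 ± 0.09.

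Summed over the 42 genes, the level was 5065 ± 56.5 CPM (SD, n = 3) in PBS, 5216 ± 40.5 CPM with EKO exosomes and 5224 ± 35.1 CPM with wild-type exosomes. The lowest exosome library, at 5170 CPM, was above the highest PBS library, at 5126 CPM. Sdcbp, Cd9 and Cd63 together accounted for 140.4 of the 151 CPM by which EKO exosome cultures were higher, and for 131 of the 159.8 CPM with wild-type exosomes. The other 39 genes summed to 3637 ± 48.1, 3648 ± 22.2 and 3667 ± 16.5 CPM, and those ranges overlapped. Sdcbp, Cd9 and Cd63 were picked for this sum because they had passed, so it is given as a description with no test.

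Counts for Hgs and Vps25 were low for genes of this machinery. Hgs, the ubiquitin-binding core of ESCRT-0, has 2 IDs in the table, which lie on 1 strand of chromosome 11 and share 97.2% and 99.6% of their exon length with each other, and had 0 to 2 counts. Vps25 shares 67.2% of its exon length with Ramp2 on the same strand, and Ramp2 itself was at 0 to 0.244 CPM. Among protein-coding genes that share 90% or more of their exon length with a gene of the same strand, 173 of 192 (90.1%) had at most 2 counts in any library, against 5813 of 15469 (37.6%) with no exon overlap, so the counts of Hgs are not read as expression. Among those that share 50% to under 90%, as Vps25 does, the count was 78 of 204 (38.2%). Vps25 itself had 4 to 48 counts, above that cut of 2 counts, so this share cannot speak for it. Whether the overlap lowered its counts was not tested. Other overlaps were smaller: 29.2% of the exon length of Tspan31, which has Cdk4 as its neighbour, and 10.7% of Cd9, all of it antisense.

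Around the core machinery, 93 other genes of the pathway were listed, and 76 of them were tested. With EKO exosomes 6 rose and 5 fell, and with wild-type exosomes 4 rose and 2 fell. Those are 14.5% and 7.89% of the 76, beside 4.23% and 4.11% of all genes tested, and 8.62% and 8.49% of genes at a mean of 25 CPM or more. Between the exosome groups 1 was lower with EKO exosomes, and 0 were higher. That is 1.32% of the 76, beside 0.695% of all genes and 1.47% of those at 25 CPM or more. For the mean of both exosome groups against PBS, 7 rose and 3 fell. Those are 13.2%, beside 5.31% of all genes and 10.8% of those at 25 CPM or more. The list was drawn up with earlier results of these data known, so its counts are descriptions.

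The syndecan and heparan sulfate genes are the cargo side of the syntenin route. Hpse codes for heparanase, the enzyme that trims heparan sulfate chains on syndecans and is known to promote syntenin-dependent exosome formation. It was at 152, 143 and 161 CPM in PBS, 202, 192 and 194 CPM with EKO exosomes and 181, 186 and 192 CPM with wild-type exosomes, so all exosome libraries were above PBS. Hpse had a log2 fold change of 0.36 ± 0.05 with EKO exosomes (edgeR adjusted p = 6.33e-07) and 0.30 ± 0.05 with wild-type exosomes (adjusted p = 3.54e-05), and both calls held in each of 17 alternatives.

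Sdc3, which codes for syndecan-3, a heparan sulfate proteoglycan that syntenin can bind, fell with EKO exosomes. It was at 933, 1046 and 1041 CPM in PBS, 874, 849 and 917 CPM with EKO exosomes and 961, 998 and 1055 CPM with wild-type exosomes, so the EKO exosome libraries were below all others. Sdc3 had a log2 fold change of -0.19 ± 0.04 with EKO exosomes (edgeR adjusted p = 0.000983) and 0.00 ± 0.04 with wild-type exosomes (adjusted p = 0.985). The direct difference, EKO minus wild type, was -0.19 ± 0.04 (adjusted p = 0.00513). That difference did not pass with DESeq2 (adjusted p = 0.0901) or without EKO exosome replicate 1 (0.0545), EKO exosome replicate 2 (0.0978) or wild-type exosome replicate 3 (0.0919). Of the 9 tested genes in this group, no others passed in the comparisons with PBS.

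Among the endosomal and ESCRT-linked genes, Eea1 and Nedd4l rose with EKO exosomes, which is 11.1% of the 18 tested. All genes tested had 4.23%, and those at a mean of 25 CPM or more 8.62%. None of the 18 passed with wild-type exosomes, where those shares were 4.11% and 8.49%. Eea1 codes for the tether of early endosomes and was at 234, 237 and 219.5 CPM in PBS, 270.02, 259 and 269.5 CPM with EKO exosomes and 259, 243 and 249.5 CPM with wild-type exosomes. The exosome libraries were all above PBS, with log2 fold changes of 0.21 ± 0.04 (edgeR adjusted p = 0.000497) and 0.12 ± 0.04 (adjusted p = 0.0793). The difference between the exosome groups was 0.09 ± 0.04 and did not pass (adjusted p = 0.517). Nedd4l, which codes for a ubiquitin ligase of membrane proteins, had 0.22 ± 0.06 (adjusted p = 0.0389) and 0.16 ± 0.06 (adjusted p = 0.173), and 0.05 ± 0.06 between the exosome groups (adjusted p = 0.910). Its call was lost without EKO exosome replicates 1, 2 or 3 (adjusted p = 0.0631, 0.0927 and 0.235) or PBS replicate 1 (0.318).

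Of the 9 ceramide genes, Cers6 alone passed, with EKO exosomes and for the mean of both exosome groups against PBS (log2 fold change -0.16, edgeR adjusted p = 0.0161). The difference between the exosome groups did not pass (log2 difference -0.09 ± 0.05, edgeR adjusted p = 0.702). Cers6 codes for a ceramide synthase and was at 162, 148 and 145 CPM in PBS, 131, 131 and 132 CPM with EKO exosomes and 147, 138 and 134 CPM with wild-type exosomes. Its log2 fold change was -0.20 ± 0.05 with EKO exosomes (adjusted p = 0.0083) and -0.12 ± 0.05 with wild-type exosomes (adjusted p = 0.233). Without PBS replicate 1, the highest library, the first was -0.15 with an adjusted p of 0.123, and without EKO exosome replicate 2 the adjusted p was 0.0523. For the mean of both, the adjusted p was 0.269 without PBS replicate 1 and 0.0526 without wild-type exosome replicate 3.

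Genes for proteins that ride on exosomes or bind them changed in both directions. Of 16 tested, 3 rose and 3 fell with EKO exosomes, and 3 rose and 2 fell with wild-type exosomes. Those are 37.5% and 31.25%, to be set beside the same shares of all genes, 4.23% and 4.11%, or 8.62% and 8.49% at 25 CPM or more. Mfge8 codes for lactadherin, which binds phosphatidylserine on vesicles, and was at 143, 152 and 164 CPM in PBS, 178, 167 and 180.0 CPM with EKO exosomes and 194, 176 and 178 CPM with wild-type exosomes. Its log2 fold change was 0.19 ± 0.05 with EKO exosomes (edgeR adjusted p = 0.0148) and 0.26 ± 0.05 with wild-type exosomes (adjusted p = 0.000842). The first was lost without EKO exosome replicate 1 (adjusted p = 0.0956) or 3 (0.117), or PBS replicate 1 (0.155) or 2 (0.0571).

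Of the integrin genes in the cargo list, Itgam and Itga4 fell, while Itgb1 and Itgb2 did not pass in any comparison. Itgam codes for CD11b, the integrin chain of myeloid cells, and is also 1 of the 7 macrophage markers. It was at 136, 136 and 121 CPM in PBS, 93.9, 97.4 and 98.4 CPM with EKO exosomes and 104, 109 and 93.7 CPM with wild-type exosomes. The log2 fold changes were -0.44 ± 0.06 and -0.36 ± 0.06 (edgeR adjusted p = 1.22e-06 and 5.91e-05), and 68.7% of its exon length is shared with Gm49368, so its counts are uncertain. Itga4, the alpha-4 integrin chain, had -0.23 ± 0.04 and -0.15 ± 0.04 (adjusted p = 0.000179 and 0.0179). The second was lost without PBS replicate 1 (adjusted p = 0.0982), PBS replicate 2 (0.129) or wild-type exosome replicate 1 (0.149). Other genes of this list that passed, named after their values were seen, were Lamp1 higher with both exosomes, Anxa5 higher and Actb lower with EKO exosomes, and Tfrc higher with wild-type exosomes.

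The release step showed no change past the threshold. Of 18 listed genes for transport, docking and fusion of multivesicular bodies, 15 were tested, and 0 passed in any comparison with edgeR. At an unadjusted p under 0.05 there were 3 of 15 with EKO exosomes, 6 of 15 with wild-type exosomes and 1 of 15 between them, where all genes had 13.1%, 14% and 8.15%. The share with wild-type exosomes was thus above that of all genes. Of the 5985 genes at 25 CPM or more, 1378 were under that p with wild-type exosomes. Rab27a, the small GTPase for docking at the cell surface and a gene named after its values were seen, did not pass in any comparison. It was low, at 6.82, 7.81 and 7.34 CPM in PBS, 7.11, 5.80 and 7.07 CPM with EKO exosomes and 4.17, 5.73 and 5.26 CPM with wild-type exosomes. None of the 9 tested of 20 other tetraspanins passed in any comparison, with 1 at an unadjusted p under 0.05 in each comparison with PBS and 0 between the exosome groups.

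**Figure D4:**
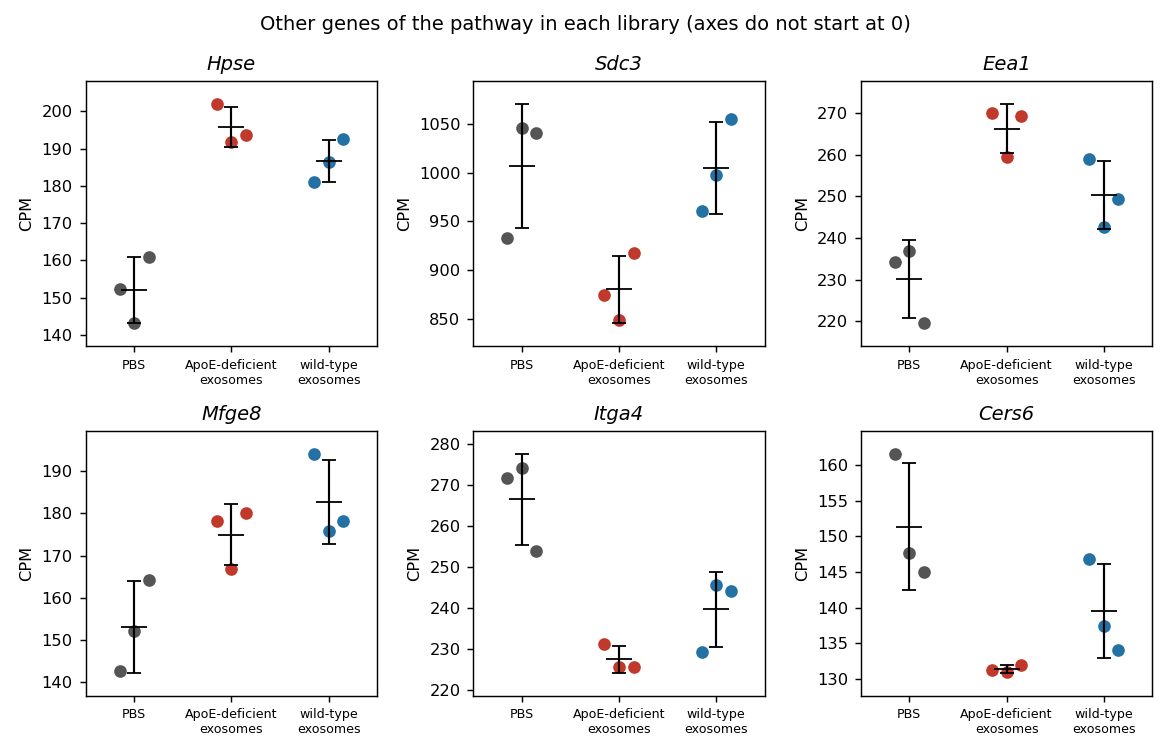
Normalised level in CPM (axes do not start at 0) of 6 other genes of the pathway in each library, with the group mean and SD as black bars. All exosome libraries lie above PBS for Hpse, Eea1 and Mfge8 and below it for Itga4, and the EKO exosome libraries lie below all others for Sdc3 and Cers6.

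The sequence just upstream of the transcription start was available from RefSeq (GRCm38.p6) for 34 of the 42 genes. GC boxes (GGGCGG on either strand) were searched in the 250 bases before each RefSeq start, and 19 of 34 genes (55.9%) had 1 or more, against 32.7% of all 32851 windows. The E-box CACGTG was present for 4 of 34 (11.8%), against 6.02% of windows, and TATAAA on either strand for 1 of 34 (2.94%), against 12.4%. The 34 genes were counted by gene and the background by window, with no limit to expressed genes. The shares are therefore not matched for expression. The window of Cd63, which also passed against PBS, held 0 GC boxes. It covers chr10:128909095-128909344, while the GENCODE M21 transcripts of Cd63 looked up start at 128900989, 128908820 and 128909699. That window therefore matches none of those starts and may not be the promoter in use. A link of GC boxes to the changes in RNA was not tested. The upstream stretch of Cd9, the member that passed between the exosome groups, is shown for chr6:125494792-125495010 on the minus strand, cut where the first GENCODE exon begins, with its 2 GC boxes in capitals.
Cd9: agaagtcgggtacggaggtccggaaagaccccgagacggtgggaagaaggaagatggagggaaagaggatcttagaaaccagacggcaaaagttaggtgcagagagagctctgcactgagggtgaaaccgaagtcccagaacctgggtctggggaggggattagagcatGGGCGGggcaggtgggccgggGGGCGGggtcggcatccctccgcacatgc
Matches are letters in a reference window and no measure of binding.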

How the data were processed

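mRNA-seq libraries of 9 macrophage cultures in 3 groups were analysed. The deposited values are raw counts per Ensembl gene, which the authors made with STAR 2.7.5c on GRCm38, per the submitters' processing notes. No source used here gives the annotation release, the strand setting or read trimming, so reads of overlapping genes may be shared or lost. All 55536 gene IDs matched GENCODE M21. Genes were kept by filterByExpr with a minimum count of 10, leaving 13815. edgeR 4.0.16 in R 4.3.3 fitted TMM-scaled counts of all 9 libraries by group (glmQLFit, robust), and glmQLFTest gave 3 pairwise contrasts, the mean of both exosome groups against PBS and an F test. Adjusted p is by Benjamini-Hochberg over all genes tested, called under 0.05. CPM use TMM-scaled library sizes, and TPM use union exon length. The fit was tested on simulated data. Library pairs within groups differed beyond sampling noise, with chi-square per gene from 6.76 to 10.2.

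The members and lists were chosen with earlier results of these data known. Values in each library are given for members that passed, and for the most abundant member and the member with the lowest F test p of each role, while other pathway genes are named by lowest F test p, up to 3 in a list. Alternatives were DESeq2 1.42.0, limma-voom (limma 3.58.1), other scaling, other count filters, a replicate block and leaving out each library.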

Additional observations from a re-analysis of the deposited data

Results flagged for a closer look

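Cd9 and Sdc3 stood out because the effect of exosomes differed between the donors when the difference itself was tested with edgeR. For Cd9, the log2 fold change with EKO exosomes minus that with wild-type exosomes was 0.15 (adjusted p = 0.0345), with all 3 EKO exosome libraries above all 3 wild-type exosome libraries. For Sdc3 the same difference was -0.19 (adjusted p = 0.00513), with all 3 EKO exosome libraries below all 3 wild-type exosome libraries. Both lost the call when some single libraries were left out, with adjusted p up to 0.347 for Cd9 and 0.0978 for Sdc3. Across all 13815 genes 96 (0.695%) passed in this comparison.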

How the results depend on the processing

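Of 27 calls for named genes, 18 passed the threshold under every alternative run and 9 lost it under at least 1. Leaving out 1 library at a time gave 1 to 2 members higher with EKO exosomes than PBS and 0 to 1 higher with EKO than wild-type exosomes. It gave 52 to 109 genes different between the exosome groups (96 with all libraries; 149 with DESeq2) and 479 to 689 for the mean of both against PBS (733 with all libraries, 479 without PBS replicate 2). With wild-type exosomes, 1 member was lower with DESeq2, limma-voom or a minimum count of 30, and 0 otherwise in the full data. Small differences that did not pass changed sign when 1 library was left out: the log2 ranges were -0.0264 to 0.0180 for Vps4b with EKO exosomes, -0.0322 to 0.0619 for Cd9, -0.14 to 0.0615 for Snf8 and -0.0541 to 0.0278 for Sdc3 with wild-type exosomes, -0.0293 to 0.0950 for Snf8 in the mean of both, and -0.0652 to 0.00228 for Cd63 and -0.0783 to 0.107 for Stam between the exosome groups. The cause was not tested. Other scaling moved the median of all genes by at most 0.00286 (log2).

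Pairing by replicate number was not seen in 1 measure. Deviations of same-numbered libraries from their group means correlated from -0.035 to 0.0402 over 9 pairs, and of other pairs from -0.0483 to 0.0385. With a replicate block, 3 members were higher with EKO exosomes, 2 with wild-type exosomes and 1 between them. The genes called numbered 662, 669 and 144, against 585, 568 and 96 without the block. The correlations therefore cannot show that replicate number had no part. Cd9 passed for the mean of both exosome groups against PBS with the block (adjusted p = 0.0394), with a minimum count of 30 (0.0492) and without wild-type exosome replicate 2 (0.0184), and not otherwise (0.0758 in the chosen analysis). Counts limit the reading of Vps25 (4 to 48 counts) and Hgs (0 to 2 counts).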
